A study of Homo sapiens with 4 samples.

Results

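The data for 10 genes of the epithelial cell surface and its membrane traffic are described on 4 arrays: MAL, MAL2, TMEM125, TMC4, TMC5, TMC6, AP1M2, ST14, SPINT1 and SPINT2. They were read by 11 of the 41000 probes, 1 probe for each gene and a pair for TMC6. MAL2, TMEM125 and TMC4 were chosen by their measured ratios, which are among the strongest on these arrays, so their values are described here with no test. The other 7 genes were added as relatives of these or as epithelial surface genes. The arrays compared RNA from HCT116, an established human colon cancer cell line, in clones that stably express a short hairpin RNA (shRNA) against N-BLR, a long noncoding RNA. Clone #3-1 and clone #4-7 were each hybridised to 2 Agilent arrays with 2 dyes, and RNA from an HCT116 clone with the empty vector was on every array. Each group is thus a single clone. The labels speak of lentiviral transduction, while the study's methods describe a transfected pSuper.retro.puro vector and G418 selection, and no probe carries the name of N-BLR, so the knockdown was not read. Replicates are biological by the labels and only duplicates by the methods, so the p-values measure the spread between these arrays, which may be technical.

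Epithelial cells keep an apical and a basolateral membrane apart and sort proteins to each. MAL and MAL2 are small proteins that cross the membrane several times and carry cargo to the apical surface in lipid-rich membranes, MAL2 by the route across the cell called transcytosis. AP1M2 is the epithelial medium subunit (mu1B) of the AP-1 clathrin adaptor and sorts proteins to the basolateral surface. ST14 (matriptase) is a membrane-anchored serine protease of epithelia, and SPINT1 and SPINT2 (HAI-1 and HAI-2) are the membrane-bound Kunitz-type inhibitors that restrain it. TMC4, TMC5 and TMC6 belong to the transmembrane channel-like family. TMEM125 is a little-studied protein predicted to span the membrane.

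On every array, the labels assign the red dye (Cy5) to the RNA of the clone and the green dye (Cy3) to that of the control with empty vector, without a dye swap. The signals of the channels go against this. Over the 26882 probes well above background in both channels on all arrays, the median absolute log2 difference between the arrays of the clones was 0.22 in Cy3 and 0.065 in Cy5. Between arrays of the same clone it was 0.054 in Cy3 and 0.059 in Cy5. A difference of over 2-fold between the clones' arrays was seen at 1031 probes in Cy3 and at 24 in Cy5. The channel that the labels give to a shared control RNA thus differed with the clone, and the channel they give to the clones did so at few probes. Spike-in controls in the file headers had a slope of observed on stated log ratio of 0.919 to 0.931, which checks the red and green columns and says nothing of the RNA put in each. All ratios are therefore given by channel, as Cy5 over Cy3, with each channel called by its label.

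**Figure D1:**
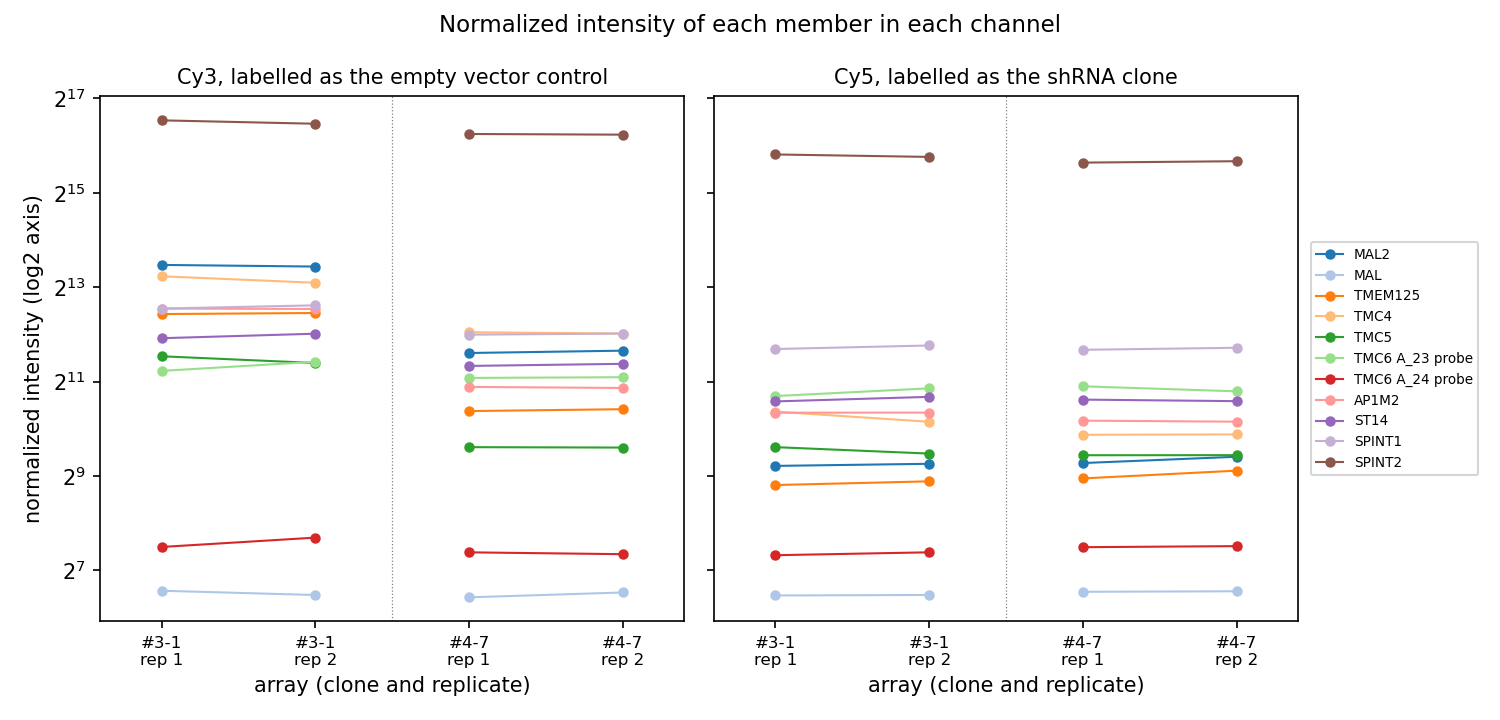
Normalized intensity (log2 axis) of each probe in Cy3 (left) and Cy5 (right) on the arrays of clone #3-1 and clone #4-7, 1 point an array. In Cy3, MAL2 lies at 11349.8 and 11080.3 on the clone #3-1 arrays and at 3113 and 3222 on the clone #4-7 arrays, while in Cy5 its 4 points lie between 593 and 678.

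By the labels, these genes were lower in the clones than in the control. The study reads these arrays in the opposite direction, with CDH1 (E-cadherin) raised and VIM (vimentin) lowered in the clones. It reports the same directions for both in these clones by qRT-PCR and immunofluorescence. Of the 10 genes, 9 were well above background in both channels on all arrays, and all 9 had a negative log2 ratio on every array by their brightest probe. In all 9, both clone #3-1 arrays lay below both clone #4-7 arrays. MAL2, TMEM125 and TMC4 are among the 9 and were chosen by their ratio. The share of all probes with such a separation, or with a negative ratio on every array, was not counted. How unusual these counts of 9 are therefore cannot be read here. By limma's unadjusted p of 0.001, 11.6% of all 41000 probes had a lower ratio in clone #3-1 than in clone #4-7. That call is another measure than the order of the arrays and does not stand in for the missing share. At the brightest probes of the 9 genes, the arrays of a clone differed by at most 0.076 in clone #3-1 and 0.11 in clone #4-7, on the log2 scale. Nothing here tells fewer expressing cells from less RNA in each cell, since RNA of whole cultures was measured.

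**Figure D2:**
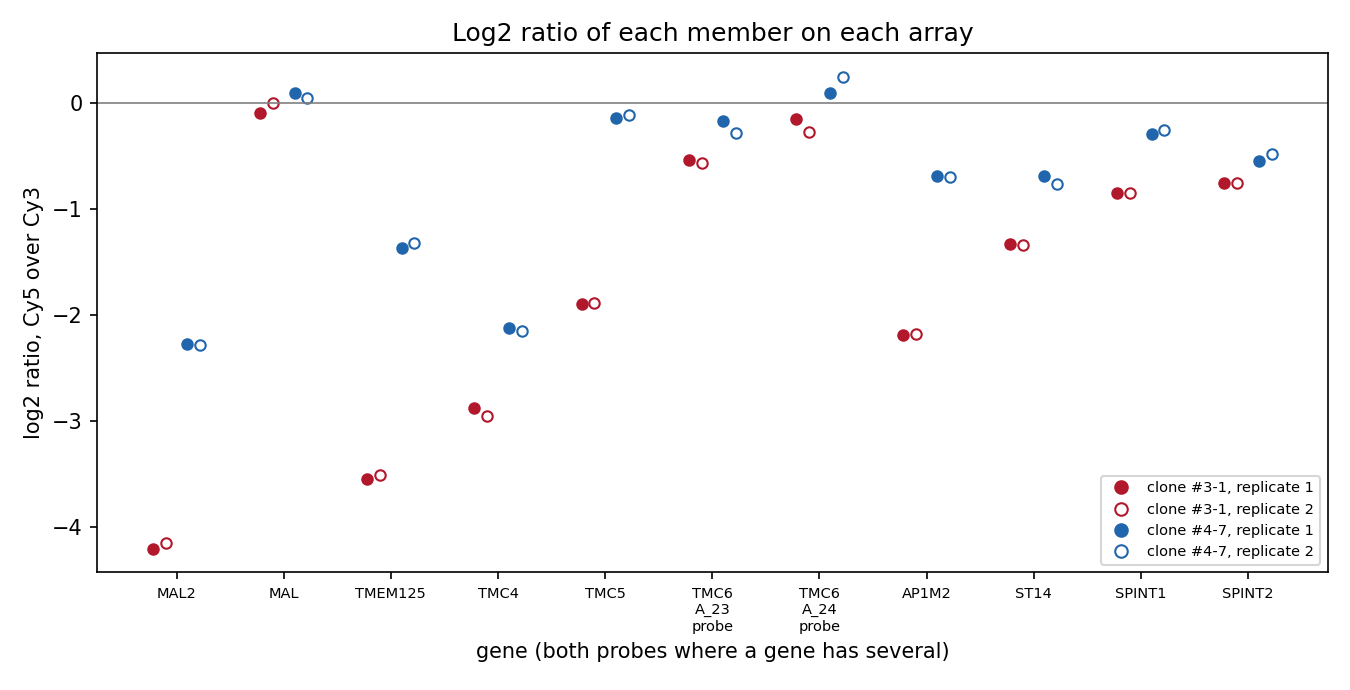
Log2 ratio of Cy5 over Cy3 on each array, by gene, with filled points for replicate 1 and open points for replicate 2. MAL2 lies at -4.21 and -4.15 in clone #3-1 and at -2.28 on both arrays of clone #4-7, and MAL lies near 0 on all 4.

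MAL2 had the lowest log2 ratio of all 41000 probes in clone #3-1 and rank 45 from the lowest in clone #4-7. Its probe lies on chromosome 8 from 120326738 to 120326797 (build hg17). The log2 ratio was -4.21 and -4.15 on the clone #3-1 arrays and -2.28 on both clone #4-7 arrays, with means of -4.18 ± 0.041 and -2.28 ± 0.0014 (SD, n = 2). Intensity was thus 18.1-fold higher in Cy3 than in Cy5 with clone #3-1 and 4.85-fold higher with clone #4-7. The clones do not overlap. In Cy3 the normalized intensity was 11349.8 and 11080.3 on the clone #3-1 arrays against 3113 and 3222 on the clone #4-7 arrays, a ratio of 3.54. In Cy5 it was 593, 612, 619 and 678 on the same arrays in that order, a ratio of 0.930. The gap between the clones' ratios thus lay in the channel labelled as the control.

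MAL, the founding member of the family and known from T cells and myelin as well as kidney epithelium, was not well above background in either channel on any array. Its probe lies on chromosome 2 from 95141469 to 95141528. The normalized intensity was 86.1 to 94.9 in Cy3 and 88.5 to 94.1 in Cy5, and no fold is given. Limma's test over all probes did not pass in either clone (Benjamini-Hochberg adjusted p = 0.337 in clone #3-1 and adjusted p = 0.158 in clone #4-7), which bears on a probe without a measured level.

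TMEM125 ranked 3 from the lowest in clone #3-1 and 235 in clone #4-7. The probe maps to chromosome 1 from 43408698 to 43408757. On single arrays its log2 ratio was -3.55 and -3.51 in clone #3-1 (mean -3.53 ± 0.026) and -1.37 and -1.32 in clone #4-7 (mean -1.34 ± 0.036, SD, n = 2), or 11.5-fold and 2.54-fold higher in Cy3. Both clone #3-1 arrays were far below the clone #4-7 arrays, and the difference of -2.19 was the largest of the 10 genes. Its Cy3 intensity was 5516 and 5602 against 1327 and 1364, a ratio of 4.13 between the clones' arrays. Its Cy5 intensity was 448, 473, 494 and 553, a ratio of 0.881. As for MAL2, it was the Cy3 signal that separated the clones.

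TMC4 ranked 11 from the lowest in clone #3-1 and 55 in clone #4-7, and was the closest between the clones of the 3 genes chosen by their ratio. The probe maps to chromosome 19 from 59356031 to 59356090. The log2 ratio was -2.87 and -2.95 in clone #3-1 (mean -2.91 ± 0.054) and -2.12 and -2.15 in clone #4-7 (mean -2.13 ± 0.020, SD, n = 2), or 7.53-fold and 4.39-fold higher in Cy3. The clones do not overlap, with a difference of -0.78. Its Cy3 intensity was 9605 and 8735 against 4225 and 4144, a ratio of 2.19. Its Cy5 intensity was 1316 and 1134 against 937 and 942, and this ratio of 1.30 was the largest that any of the 9 genes had in Cy5. TMC4 therefore differed between the clones' arrays in both channels, and in Cy3 by more.

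For each of these genes the 3 whose log2 ratios lay nearest over the 4 arrays were sought among the other 26881 probes well above background in both channels, by the root mean square difference. Nearest to MAL2 were S100A14, an EF-hand calcium-binding protein (0.43), and then TMEM125 (0.80) and TMC4 (0.90). S100A14 was also nearest to TMEM125 (0.44), with log2 ratios of -3.71 and -3.63 in clone #3-1 and -2.01 and -1.90 in clone #4-7. It was followed by ATP2C2, a calcium and manganese pump of the secretory pathway (0.46), and a transcript with no gene symbol. TMC4 had as nearest a transcript with no gene symbol (0.25), then RGS2, a regulator of G-protein signalling (0.33), and CD33, a sialic acid-binding lectin (0.50). S100A14 was less negative than MAL2 on every array, where MAL2 had been chosen by its ratio. The search used the same ratios by which MAL2, TMEM125 and TMC4 were chosen. Only probes with very low ratios could lie near them, so the nearness of TMEM125 and TMC4 to MAL2 follows from that choice.

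Of the 7 genes not chosen by their ratio, 6 were above background and all 6 passed the threshold (limma's p of 0.001, unadjusted) with a lower ratio in clone #3-1. Over all 41000 probes, 16.4% passed lower and 16.3% higher in that clone. In clone #4-7, 4 of the 7 passed, all lower (AP1M2, ST14, SPINT1 and SPINT2), where 15% of all probes passed lower and 16.1% higher. No gene of the 7 passed in the higher direction in either clone. A test of the ratio against 0 takes no account of how the control varies, since by the labels the control is 1 RNA. For the difference of clone #3-1 minus clone #4-7, 4 of the 7 passed as lower (TMC5, AP1M2, ST14 and SPINT1), against 11.6% lower and 11% higher over all probes. The shares over all probes also count those where, on some array, neither channel was well above background. A fit without these held 28574 probes. Of them 7685 passed lower and 7891 higher in clone #3-1, 7114 and 7848 in clone #4-7, and 5875 and 5644 for the difference. More passed there among fewer probes, so the shares over all probes are too low a measure for genes above background. Of the 7 genes, 6, 5 and 6 passed in that fit. Beside each call the p adjusted over all 41000 probes (Benjamini-Hochberg) is given, and a gene can miss the threshold with an adjusted p below 0.05.

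AP1M2 had the lowest log2 ratio of these 7 genes in clone #3-1. Its probe matches chromosome 19 between 10546159 and 10546629. The 4 arrays gave a log2 ratio of -2.19 and -2.18 in clone #3-1 (mean -2.19 ± 0.0065) and -0.69 and -0.70 in clone #4-7 (mean -0.69 ± 0.0034, SD, n = 2), or 4.55-fold and 1.62-fold higher in Cy3. The arrays of a clone were nearly identical, and the clones did not overlap. By limma the ratio passed with both clones, with an adjusted p = 5.95e-06 for clone #3-1 and an adjusted p = 4.68e-05 for clone #4-7. The difference of -1.49 (95% interval -1.59 to -1.39) also passed (adjusted p = 3.99e-05). The Cy3 intensity was 5978 and 5945 against 1892 and 1863, and the Cy5 intensity lay between 1136 and 1298 on all 4 arrays.

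The bases before the start of a gene are shown for 4 genes. The letters of an E-box bound by ZEB and SNAIL repressors (CAGGTG, or CACCTG on the other strand) were found in AP1M2, TMC4 and SPINT1. TMEM125 is shown as a gene chosen by its ratio whose entry lacks them. RefSeq sequences of build GRCh38.p14 were searched for 6 of the 10 genes, in the 250 bases before each start. TMC6 and SPINT1 had a pair of starts. MAL2 was left out of this search and is not reported here, and TMC5, ST14 and SPINT2 had no entry. Of 35116 promoters, 17.5% held these letters at least once, 2.53% at least 2 times and 0.464% at least 3 times. AP1M2 (chr19:10587313-10587562, minus strand) held 3, which begin 57, 27 and 15 bases before the start. TMC4 (chr19:54173161-54173410, minus strand) held 2, at 51 and 32 bases before the start, and 1 of the starts of SPINT1 (chr15:40844227-40844476, plus strand) held 1, at 26 bases. TMEM125 (chr1:43269733-43269982, plus strand), MAL and TMC6 held none. The wider form CANNTG, which takes in the former, was found 4 times in AP1M2 and 2 times each in TMC4 and TMEM125, and at least once in 61.8% of all promoters. A match describes the letters and shows no binding. Capitals mark CAGGTG or CACCTG, 5′ to 3′ on the strand of the gene.
AP1M2: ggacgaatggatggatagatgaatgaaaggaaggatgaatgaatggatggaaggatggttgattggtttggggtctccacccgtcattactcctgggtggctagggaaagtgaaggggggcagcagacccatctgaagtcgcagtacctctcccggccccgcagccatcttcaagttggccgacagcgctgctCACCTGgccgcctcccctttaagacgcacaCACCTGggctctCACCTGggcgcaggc
TMC4: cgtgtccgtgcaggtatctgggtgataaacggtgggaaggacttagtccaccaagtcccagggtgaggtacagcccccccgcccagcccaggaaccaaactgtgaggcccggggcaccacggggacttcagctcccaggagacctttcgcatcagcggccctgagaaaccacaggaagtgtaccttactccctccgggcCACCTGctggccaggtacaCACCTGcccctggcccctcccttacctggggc
SPINT1: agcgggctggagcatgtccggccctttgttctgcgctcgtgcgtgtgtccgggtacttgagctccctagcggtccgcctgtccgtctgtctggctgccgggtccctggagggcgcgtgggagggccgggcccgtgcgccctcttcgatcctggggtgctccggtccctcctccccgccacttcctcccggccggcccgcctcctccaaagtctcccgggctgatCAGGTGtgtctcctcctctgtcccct
TMEM125: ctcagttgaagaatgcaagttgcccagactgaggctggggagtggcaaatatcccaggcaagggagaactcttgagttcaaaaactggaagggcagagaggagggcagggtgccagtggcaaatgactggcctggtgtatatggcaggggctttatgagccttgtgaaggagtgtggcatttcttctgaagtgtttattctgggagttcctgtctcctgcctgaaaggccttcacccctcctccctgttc

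ST14, the protease, was lower on all 4 arrays. Its probe lies on chromosome 11 from 129585025 to 129585084. The log2 ratio was -1.33 and -1.34 in clone #3-1 (mean -1.33 ± 0.0058) and -0.69 and -0.77 in clone #4-7 (mean -0.73 ± 0.056, SD, n = 2), or 2.52-fold and 1.66-fold higher in Cy3. The clones did not overlap. Both clones passed, clone #3-1 with an adjusted p = 1.47e-05 and clone #4-7 with an adjusted p = 6.2e-05. The difference of -0.60 (95% interval -0.72 to -0.49) passed as well (adjusted p = 0.00048). The Cy3 intensity was 3869 and 4134 against 2575 and 2656, while the Cy5 intensity stayed between 1530 and 1635.

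SPINT1, an inhibitor of ST14, moved less. The probe maps to chromosome 15 from 38936608 to 38936667. Its ratio on the log2 scale was -0.85 on both clone #3-1 arrays (mean -0.85 ± 0.0048) and -0.29 and -0.26 in clone #4-7 (mean -0.27 ± 0.022, SD, n = 2), or 1.80-fold and 1.21-fold higher in Cy3. Clone #3-1 passed with an adjusted p = 2.53e-05 and clone #4-7 with an adjusted p = 0.000825, and so did the difference of -0.58 (adjusted p = 0.000369). The call in clone #4-7 was lost in 6 of 14 alternatives, among them both that leave out an array of that clone (log2 ratio -0.26 without replicate 1 and -0.29 without replicate 2).

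SPINT2, the other inhibitor, is read by a probe on chromosome 19 from 43474699 to 43474758. The log2 ratio was -0.76 and -0.75 in clone #3-1 (mean -0.76 ± 0.00030) and -0.55 and -0.48 in clone #4-7 (mean -0.51 ± 0.048, SD, n = 2), or 1.69-fold and 1.43-fold higher in Cy3. It passed in both clones (adjusted p = 4.29e-05 and adjusted p = 0.000138). The difference between the clones was -0.24 (95% interval -0.35 to -0.13) and did not pass the threshold (adjusted p = 0.00935), although both clone #3-1 arrays lay below both clone #4-7 arrays. It was -0.10 with the deposited ratios and -0.13 without normalization between arrays, and it passed with only probes above background and with an intensity trend in the prior variance. The protease and both of its inhibitors were thus lower in Cy5, by label the shRNA clone, with each clone.

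TMC5 showed the widest gap between the clones among the tested genes. Its probe lies on chromosome 16 from 19416949 to 19417008. Its log2 values were -1.89 on both clone #3-1 arrays (mean -1.89 ± 0.00069) and -0.15 and -0.12 in clone #4-7 (mean -0.13 ± 0.021, SD, n = 2). It passed in clone #3-1 (3.71-fold higher in Cy3, adjusted p = 6.97e-06) and not in clone #4-7 (1.09-fold, adjusted p = 0.013). The difference of -1.76 (95% interval -1.86 to -1.66) passed (adjusted p = 2.93e-05). The Cy3 intensity was 2967 and 2689 against 781 and 777, whereas the Cy5 intensity was 781, 711, 694 and 695. With clone #4-7 both channels were thus close to each other for TMC5, where TMC4 had a mean log2 ratio of -2.13.

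TMC6 had a pair of probes that disagree. The brighter one, on chromosome 17 between 73621253 and 73624956, gave log2 ratios of -0.54 and -0.57 in clone #3-1 (mean -0.55 ± 0.020) and -0.17 and -0.28 in clone #4-7 (mean -0.22 ± 0.081, SD, n = 2). It passed in clone #3-1 (adjusted p = 0.000182), and not in clone #4-7 (adjusted p = 0.00533) or for the difference of -0.33 (adjusted p = 0.006). The dimmer one, from 73628140 to 73628199 on that chromosome, gave -0.16 and -0.28 in clone #3-1 and 0.098 and 0.25 in clone #4-7, and passed in neither (adjusted p = 0.0167 and adjusted p = 0.0366). The probes therefore have opposite signs in clone #4-7. The Cy3 intensity of the dimmer probe was 162 to 207.

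**Figure D3:**
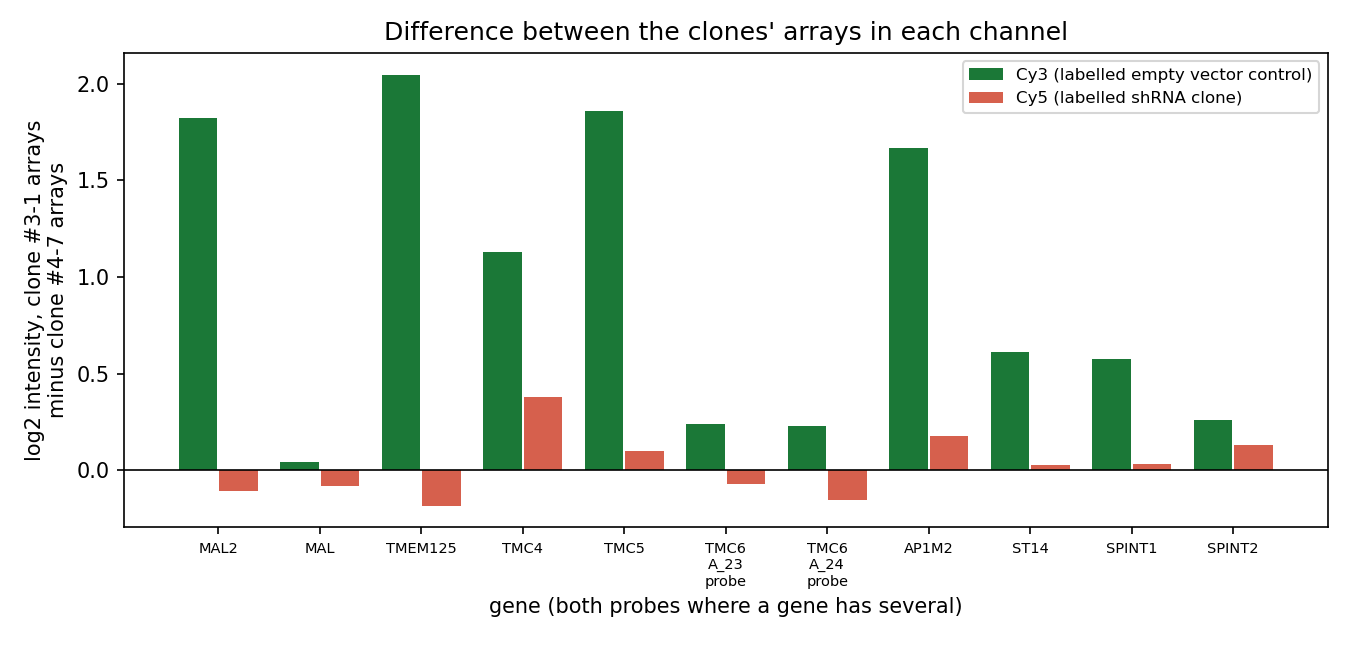
Difference in log2 normalized intensity between the arrays of clone #3-1 and of clone #4-7 (means of 2 arrays each) in Cy3 and in Cy5, by gene. The bars of TMEM125 reach 2.05 in Cy3 and -0.18 in Cy5, and those of TMC5 1.86 and 0.10.

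In all 9 genes above background, the difference between the clones' arrays was larger in Cy3 than in Cy5. The same held for 81.2% of the 26882 probes well above background in both channels. Among those of them past the threshold for the difference between the clones, it held for 98.4%. The pattern is thus that of the arrays as a whole. For the 9 genes the difference in Cy3 ran from 0.24 for TMC6 to 2.05 for TMEM125 on the log2 scale. In Cy5 it ran from -0.18 for TMEM125 to 0.38 for TMC4. The order of the genes by their difference in Cy3 (TMEM125, TMC5, MAL2, AP1M2, TMC4, ST14, SPINT1, SPINT2, TMC6) is not the order by ratio in clone #3-1 (MAL2, TMEM125, TMC4, AP1M2, TMC5, ST14, SPINT1, SPINT2, TMC6).

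Relatives and partners of these genes were counted by their brightest probe, with no test of the list. A listed gene or marker counted as above background where at least 1 channel was well above it on each array. The members needed both channels. In a fit of only the 28574 probes that meet the rule for listed genes, 7685 passed lower and 7891 higher in clone #3-1. In clone #4-7 it was 7114 lower and 7848 higher. The counts of each list below stand beside these numbers and were not tested against them. In the MAL and MARVEL family, 12 of the other 14 genes were above background. Of these 6 passed lower and 2 higher in clone #3-1, and 7 lower and 1 higher in clone #4-7, with a median log2 ratio of -0.24 and -0.27 beside 0.01 over all probes in each clone. MALL, PLLP, MARVELD1 and CMTM4 passed lower in both clones, and MALL, a MAL-like protein, had log2 ratios of -0.44 and -0.53. MARVELD3, a tight junction protein, passed lower in clone #3-1 (-0.53) and higher in clone #4-7 (0.37). All 12 had a log2 ratio closer to 0 than that of MAL2 in each clone. Since MAL2 was chosen by its ratio, this comparison says nothing of the family. In the TMC family, the only other genes above background were TMC7 and TMC8, which are named after their values were seen. TMC8 passed lower in clone #3-1 (-0.41) and TMC7 higher in clone #4-7 (0.49).

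Among 17 other genes of the AP-1 adaptor and of basolateral sorting, all above background, 7 passed lower and 3 higher in clone #3-1, and 4 lower and 4 higher in clone #4-7 (median log2 ratio -0.12 and 0.14). RAB25, an epithelial GTPase of recycling endosomes, passed lower in both clones, with log2 ratios of -2.10 and -1.48. AP1S2, a small AP-1 subunit, passed higher in both, with 2.14 and 0.77, while its relative AP1S3 passed lower in both, with -0.79 and -0.62. AP1G2 and EXOC4 also passed lower in both clones, and CLTC, the clathrin heavy chain, higher. AP1M1, the medium subunit found in most cells and the closest relative of AP1M2, is named after its values were seen. Its log2 ratio was -0.11 in clone #3-1 (not past the threshold, adjusted p = 0.0317) and 0.31 in clone #4-7, where it passed as higher (adjusted p = 0.000772). Within the adaptor, the subunits therefore did not change in 1 direction.

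The list of membrane serine proteases, Kunitz inhibitors and their substrates held 16 other genes above background. Of these 10 passed lower and 2 higher in clone #3-1, and 7 lower and 3 higher in clone #4-7 (median log2 ratio -0.46 and -0.16). PRSS8 (prostasin), a protease that acts with ST14, had log2 ratios of -2.01 and -0.39, and TMPRSS4, a related membrane protease, -1.96 and -0.25. EPCAM had -1.04 and -0.44, SCNN1A, a subunit of the epithelial sodium channel, -1.24 and -0.36, and F2RL1, the protease-activated receptor PAR-2, -0.88 and -1.47. MST1 and its receptor MST1R also passed lower in both clones, and TMPRSS2 passed higher in both (0.30 and 0.38). MET, the receptor of hepatocyte growth factor, passed lower in clone #3-1 (-0.20) and higher in clone #4-7 (1.27), and the difference between the clones passed as well.

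Of 14 other genes of apical transport and MAL2-associated membranes above background, 5 passed lower and 1 higher in clone #3-1, and 1 lower and 3 higher in clone #4-7 (median log2 ratio -0.11 and 0.01). INF2, a formin that works with MAL2 in transcytosis, passed higher in both clones, with log2 ratios of 1.83 and 1.24. TPD52L1 passed lower in both (-0.47 and -0.22). MAL2 and INF2 thus lay on opposite sides of 0 on all arrays. Of 9 reference genes of the epithelial and mesenchymal state, 8 were above background, and 5 passed lower and 2 higher in each clone. Those higher were VIM and ZEB1 in clone #3-1, and VIM and ESRP2 in clone #4-7. ZEB1 and ESRP2 are named after their values were seen. The log2 ratio of ZEB1, well above background in Cy3 on only 2 arrays, was 0.57 in clone #3-1 and -0.070 in clone #4-7. That of ESRP2 was -0.017 and 0.37. CDH1 (E-cadherin) had log2 ratios of -2.60 and -1.34, and VIM (vimentin) 4.45 and 2.39. By the labels, these directions are opposite to those the study reports for both genes by qRT-PCR and immunofluorescence. E-cadherin and ZEB1 were also measured there by western blot, and ZEB1 is reported as lowered in both clones. By the labels, the ZEB1 ratio here was opposite to this in clone #3-1 and did not pass in clone #4-7. The epithelial transcription factors ELF3, GRHL2 and OVOL1 and the splicing regulator ESRP1 passed lower in both clones. In clone #3-1 the ratios ran from -2.04 to -1.06 for the factors and were -1.39 for ESRP1. In clone #4-7 they ran from -0.93 to -0.31 and were -0.48. GRHL2 (-1.97 and -0.31) was not well above background in Cy5 on any array, so its ratios have no measured Cy5 level behind them.

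**Figure D4:**
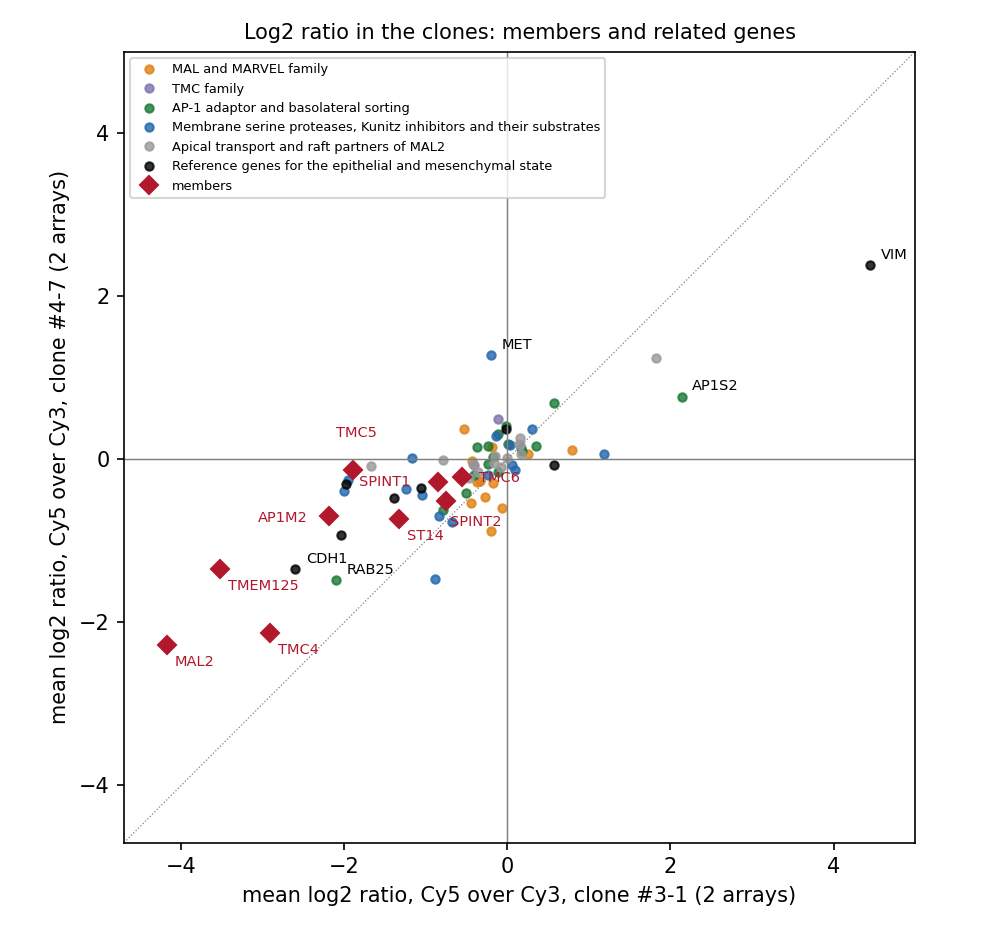
Mean log2 ratio of Cy5 over Cy3 (2 arrays a clone) in clone #3-1 (x axis) against clone #4-7 (y axis) for the members above background (diamonds) and the genes of the lists (circles), with the dotted line where both are equal. MAL2 lies at -4.18 and -2.28, TMC5 at -1.89 and -0.13, and CDH1 at -2.60 and -1.34.

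As a check of the labelled cell line, 7 of 8 markers of colon epithelium were above background. CDH1 and EPCAM, given above, and KRT8 (log2 ratio -0.69 and -0.90) passed lower in both clones. KRT19 passed lower in clone #3-1 (-0.80) and higher in clone #4-7 (0.36). The others are named after their values were seen. KRT18 passed lower in clone #4-7 only (-0.36). KRT20 (0.22 and -0.066) and CDX2 (-0.063 and -0.27) passed in neither clone, and VIL1 was not well above background on any array. Of 8 markers of blood, endothelium and fibroblasts, 3 were above background (CD3E, VWF and COL1A1). Of these, VWF and COL1A1 passed lower in both clones. The summed normalized intensity of these 8 was 1638 to 1726 on the clone #3-1 arrays and 2279 to 2292 on the clone #4-7 arrays in Cy3, and 1309 to 1365 and 1387 to 1436 in Cy5. PTPRC, PECAM1, COL1A2 and LUM were not well above background on any array. The part of these markers in the results was not tested.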

How the data were processed

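RNA of HCT116 clones was measured on 4 Agilent 2-colour arrays of 1 slide, 2 for each clone, each with 43376 probe spots of 41000 probes. The deposited files give spot intensity and local background intensity, not normalized, as read by Feature Extraction (version 9.5.3.1 in the file headers, 8.5.1.1 in the submitters' processing notes). They also hold processed intensities and a log10 ratio of Cy5 over Cy3, and the authors deposited a table of log10 ratios that lay within 0.005 of these. Between 68.5% and 72.6% of probe spots were well above background in a channel, and with so few arrays precision is limited by their number.

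Mean intensities were corrected with normexp (offset 50), loess-normalized in each array, quantile-normalized across arrays, and averaged over spots of a probe, in R 4.3.3 with limma 3.58.1. Outlier spots (87 to 125 an array) and control spots were left out. The fitted model, which had 1 term a clone over all 4 arrays, gave log2 ratios, moderated p-values with a threshold of 0.001, and Benjamini-Hochberg adjusted p-values over all 41000 probes. Channel levels were taken after loess and Aquantile normalization. Fits were tested on simulated data. Symbols came from RefSeq by accession for 23434 probes and otherwise from the files.

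The members and lists were chosen with earlier results of these data known. All member probes are named, the brightest stands for a gene, and listed genes could be named if they passed in both clones. A further listed marker is not reported here. Probe sequences and the annotation of exons were not used here.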

Additional observations from a re-analysis of the deposited data

Results flagged for a closer look

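For 4 of the 7 tested genes the log2 ratio differed between the clones by limma's contrast of clone #3-1 minus clone #4-7, at an unadjusted p of 0.001. The differences were -1.76 for TMC5, -1.49 for AP1M2, -0.60 for ST14 and -0.58 for SPINT1, with the lower ratio in clone #3-1 on both of its arrays in each. The clones are 1 clone each, so clone and shRNA cannot be told apart.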

How the results depend on the processing

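Over the alternatives, the number of the 7 tested genes past the threshold was 5 to 6 in clone #3-1, 3 to 6 in clone #4-7 and 3 to 6 for the difference between the clones, and without any 1 array they were 6, 3 to 4 and 4. With the replicate number as a replicate block they stayed at 6, 4 and 4. The deviations of arrays with the same replicate number correlated at -0.018 between the clones, which gave no sign of a pairing. With so few arrays this is only 1 correlation, so it cannot settle whether the numbers pair the arrays. For the 9 members above background, no log2 ratio changed sign in an alternative that could be run, and slide could not be used as a block because all arrays share 1 slide. The call of SPINT1 in clone #4-7 was lost with an offset of 0, plain subtraction, the processed signals and the deposited ratios (log2 ratio -0.35 to -0.28). TMC6 in clone #3-1 was lost with plain subtraction and the deposited ratios, ST14 for the difference with plain subtraction and SPINT1 for the difference with the deposited ratios, and the cause was not tested. Calls gained with an intensity trend in the prior variance or with only probes above background were those of TMC5 in clone #4-7, TMC6 in clone #3-1 (dimmer probe), in clone #4-7 (brighter probe) and for the difference (both probes), and SPINT2 for the difference, which ran from -0.27 to -0.10. The difference of the dimmer TMC6 probe ran from -0.75 to -0.31. The ratio of TMEM125 in clone #3-1 ran from -3.84 to -3.50 and that of MAL2 from -4.35 to -4.14. Among the 28574 to 41000 probes tested, those lower at the threshold ran from 3185 to 9245 in clone #3-1 (6726 as reported), from 2917 to 8524 in clone #4-7 (6141) and from 1747 to 7736 for the difference (4739). With no dye swap, dye and RNA cannot be told apart in the ratio of a clone, whereas the clones' arrays share 1 dye orientation.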
